A study of Homo sapiens with 12 samples.

Results

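The genes described are 10 enzymes that build, elongate and desaturate fatty acids: ACLY, ACSS2, ACACA, ACACB, FASN, ELOVL5, ELOVL6, SCD, FADS1 and FADS2. They were chosen by name from the 26364 genes of the count table, and all 10 were among the 13852 genes that passed the filter on low counts. Fatty acid synthesis starts from cytosolic acetyl-CoA, which ACLY makes from citrate and ACSS2 makes from acetate. The acetyl-CoA carboxylases ACACA and ACACB turn it into malonyl-CoA, and FASN, the fatty acid synthase, joins these units into palmitate. ELOVL5 and ELOVL6 lengthen fatty acyl chains, SCD puts the double bond of oleate into stearate, and FADS1 and FADS2 are the delta-5 and delta-6 desaturases of polyunsaturated fatty acids. In liver, insulin is known to raise this pathway through the transcription factor SREBP-1c, a product of SREBF1, and FASN and SCD are widely used as markers of that response.

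The samples were HepG2 cells, a human line derived from a liver hepatocellular carcinoma and grown in EMEM with 10% FBS. RNA-seq libraries were titled 0, 5, 10, 30 and 240 min after insulin stimulation, with 2 replicates at each of the 5 times. Their treatment text gives 16 hours in EMEM, then BSA medium with 3 nM insulin for 5 min, for all 10 libraries, those at 0 min included, so the times used here are those of the titles. A further library held DNA precipitated with an antibody to the insulin receptor (IR), from cells kept for 2 days in insulin and BSA, washed out for 30 min and stimulated with 3 nM insulin, with 1 input library. The extraction texts of the labels name an RNA kit for the ChIP libraries and a DNA kit for the RNA libraries, and the study's methods name the stranded RNA kit for RNA sequencing. The study's methods describe the RNA-seq as a single experiment on samples that were biologically independent, while the labels do not say how the replicates were cultured, so p-values measure the spread between samples within that experiment. HepG2 is a single tumour line and the cells were not compared with hepatocytes. Nor were insulin-resistant cells among the RNA libraries.

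Libraries held 18347109 to 45005769 reads on genes, with the deepest being replicate 2 at 0 min. The 9 hepatocyte-like markers, with ALB and APOB among them, summed to 40444 to 50924 TPM, and the 8 markers of blood, fibroblast, endothelial and fat cells to 2.56 to 4.58 TPM, with PTPRC and LEP at 0 reads in every library. This second sum was 3.84 to 4.58 TPM at 240 min and 2.56 to 3.33 TPM at the earlier times. Of its 3 tested genes PLIN1, a lipid droplet protein of fat cells, rose at 240 min from 1.09 to 2.12 CPM (passing in 6 of 11 alternative fits, and not with DESeq2, at log2 changes of 0.36 to 1.30), and HNF4A alone of the 9 hepatocyte-like genes passed at that time, at 0.30 on the log2 scale (0.18 and not passing when libraries were scaled by the ERCC spike-in RNAs). Over 0 min the median log2 change of the 9 was -0.10. ALB gave -0.29 (edgeR adjusted p = 0.0503), AFP and TTR -0.12, APOA1 and SERPINA1 -0.10 and APOB -0.0092. FGB gave 0.21 and TF 0.07. The part of either marker list in the results was not tested. In bulk RNA, fewer expressing cells and less RNA per cell cannot be told apart.

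IR peaks lay at 3 of the 10 enzyme genes: FASN, ACLY and ACACA. A gene was counted when a peak overlapped its body extended by 5 kb, and by the same rule 2175 of the 13852 tested genes had a peak, which is 15.7%. All 3 genes lie on the minus strand of chromosome 17, where 164 of 835 tested genes (19.6%) had a peak. No peak was found by this rule at ACACB, ACSS2, SCD, ELOVL5, ELOVL6, FADS1 or FADS2. The list holds 1971 peaks of 1 library, with scores from 13 to 14106 and a median of 79, so neither a position nor a score has a replicate error.

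The FASN gene (hg19, chr17:80036214-80056106) had a peak at chr17:80056065-80056627, with a score of 92 and rank 894. The peak covered 2 annotated FASN start sites and part of the 5′ untranslated exon, and its centre lay 240 bases upstream of the 5′ end of the gene. ACLY (chr17:40023170-40075275) had the strongest of these peaks, at chr17:40075184-40075547, with a score of 398 and rank 321. That peak covered 5 ACLY start sites, and its centre lay 90 bases upstream of the 5′ end. ACACA (chr17:35441927-35766902) had 2 weak peaks. The peak at chr17:35766794-35767335, with a score of 33 and rank 1608, covered 3 start sites of ACACA and also start sites of TADA2A, the divergent neighbour on the other strand. The peak at chr17:35715864-35716207, with a score of 14 and rank 1943, lay 50867 bases into the gene at 3 internal ACACA start sites. The peak table itself names ACLY as the nearest gene of its peak, but CCDC57 for the FASN peak.

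**Figure D1:**
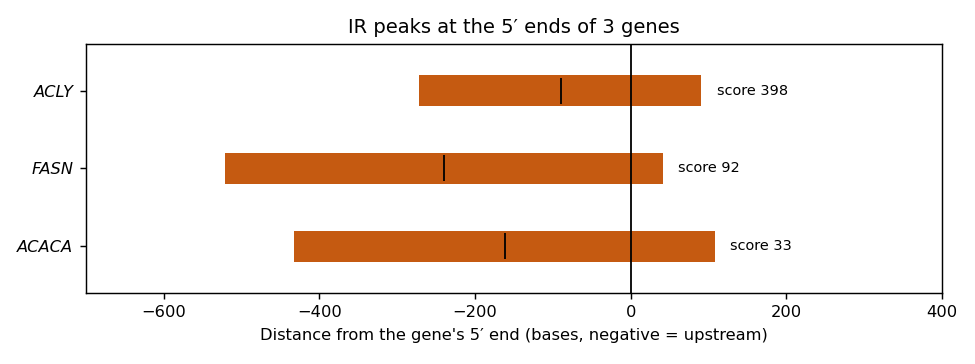
IR peaks at the 5′ ends of ACLY, FASN and ACACA. The horizontal axis is the distance in bases from the 5′ end of the gene, negative upstream, each bar spans 1 peak of the single IR library, the tick is its centre and the score is printed beside it. All 3 bars cross the 5′ end, with centres 90 (ACLY), 240 (FASN) and 162 (ACACA) bases upstream.

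The sequences under the ACLY peak and the 2 ACACA peaks are shown because they are places in the 10 genes where IR signal was called. Each is the longest stretch without an annotated exon in the central 300 bases of the peak, read 5′ to 3′ along the gene from the GRCh37 genome, and capitals mark matches to 4 motifs on either strand. The motifs were TCACNCCAC (a sterol regulatory element, bound by SREBP), CACGTG (an E-box, bound by USF and other factors), CCAAT (the NF-Y box) and GGGCGG (the GC box of Sp1 factors).
ACLY, chr17:40075276-40075515: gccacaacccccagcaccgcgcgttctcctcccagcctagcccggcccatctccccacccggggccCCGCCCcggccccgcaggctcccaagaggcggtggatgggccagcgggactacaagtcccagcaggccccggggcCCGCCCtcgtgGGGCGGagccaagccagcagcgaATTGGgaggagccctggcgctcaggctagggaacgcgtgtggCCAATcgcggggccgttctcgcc
ACACA at its 5′ end, chr17:35767041-35767214: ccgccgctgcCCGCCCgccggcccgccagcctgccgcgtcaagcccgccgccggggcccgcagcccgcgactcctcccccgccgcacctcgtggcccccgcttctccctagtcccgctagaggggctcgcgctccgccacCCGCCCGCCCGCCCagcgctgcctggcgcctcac
ACACA at internal start sites, chr17:35716065-35716185: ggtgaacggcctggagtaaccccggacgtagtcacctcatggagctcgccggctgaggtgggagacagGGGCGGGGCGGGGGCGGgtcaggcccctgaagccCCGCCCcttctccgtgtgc

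The ACLY stretch held 2 CCAAT boxes and 3 GC boxes and no match to the other motifs, and each ACACA stretch held 4 GC boxes and no other match. No match of 1 motif overlapped a match of another, but GC boxes overlapped each other in both ACACA stretches. They did so at bases 141 to 154 of the stretch at the 5′ end and at bases 69 to 79 of the internal one. Among the central 300 bases of all 1971 peaks, TCACNCCAC was found in 1.22%, CACGTG in 6.44%, CCAAT in 28.8% and GGGCGG in 67.2%. The printed stretches were shorter, at 240 bases for ACLY and 174 and 121 for ACACA, so their counts are not of like length. Over their full 300 bases the peaks held 4 GC boxes at ACLY and 6 and 5 at ACACA. A match describes the letters only and is not a measured site.

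RefSeq promoter windows, 250 bases before to 50 after a start site, were at hand for 9 of the 10 genes, all but FASN, with 15 windows in all. None of the 15 held TCACNCCAC, 1 at ELOVL5 held CACGTG, 9 held CCAAT and 11 held GGGCGG. Over all 35116 RefSeq windows of that length the shares were 1.13%, 7.26%, 34.6% and 45.0%. The 15 windows are not all separate regions. The 2 at ACLY (chr17:40075155-40075454 and chr17:40075226-40075525) overlap, and the same 2 CCAAT boxes and 4 GC boxes were counted in both. The 2 windows at FADS2 overlap as well. SCD, which had no IR peak, held 2 CCAAT boxes and 2 GC boxes in its window. Of the 14 windows found exactly once in GRCh37, 3 overlapped an IR peak, namely the 2 overlapping windows at ACLY and 1 at the internal start of ACACA.

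The RNA levels of the 10 genes spanned more than 2 orders of magnitude on the TPM scale, which corrects for gene length. SCD was the most abundant, with a median of 1576 TPM over the 10 libraries (1365 to 1874), above 99.6% of tested genes. ACLY followed at 354 TPM (320.3 to 429), FASN at 308 (242 to 381), ELOVL5 at 226 (214 to 242), FADS1 at 140.2 (128 to 161), FADS2 at 104 (86.1 to 118), ACSS2 at 99.0 (85.4 to 119.9), ACACA at 69.1 (64.2 to 74.0) and ELOVL6 at 60.7 (53.7 to 70.7). ACACB, the carboxylase of the mitochondrial surface, was lowest at 8.91 TPM (8.28 to 9.75). The ranges of ACLY and FASN overlapped, as did those of FASN and ELOVL5, of FADS2 and ACSS2, and of ACACA and ELOVL6, so those neighbours were not separated beyond their spread. Together the 10 genes took 0.524% to 0.70% of the reads on genes, with SCD alone at 0.273% to 0.381%. FADS1 and FADS2 lie head to head on opposite strands and share 855 bases, and the authors counted reads by strand. Strand does not separate listed genes that overlap on the same strand. These were RPS16P5 at ELOVL5 (3158 bases), MIR1908 at FADS1 (80 bases) and TBC1D3H, TBC1D3F and LOC101060321 over the whole ACACA body. Their effect on the counts was not tested.

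**Figure D2:**
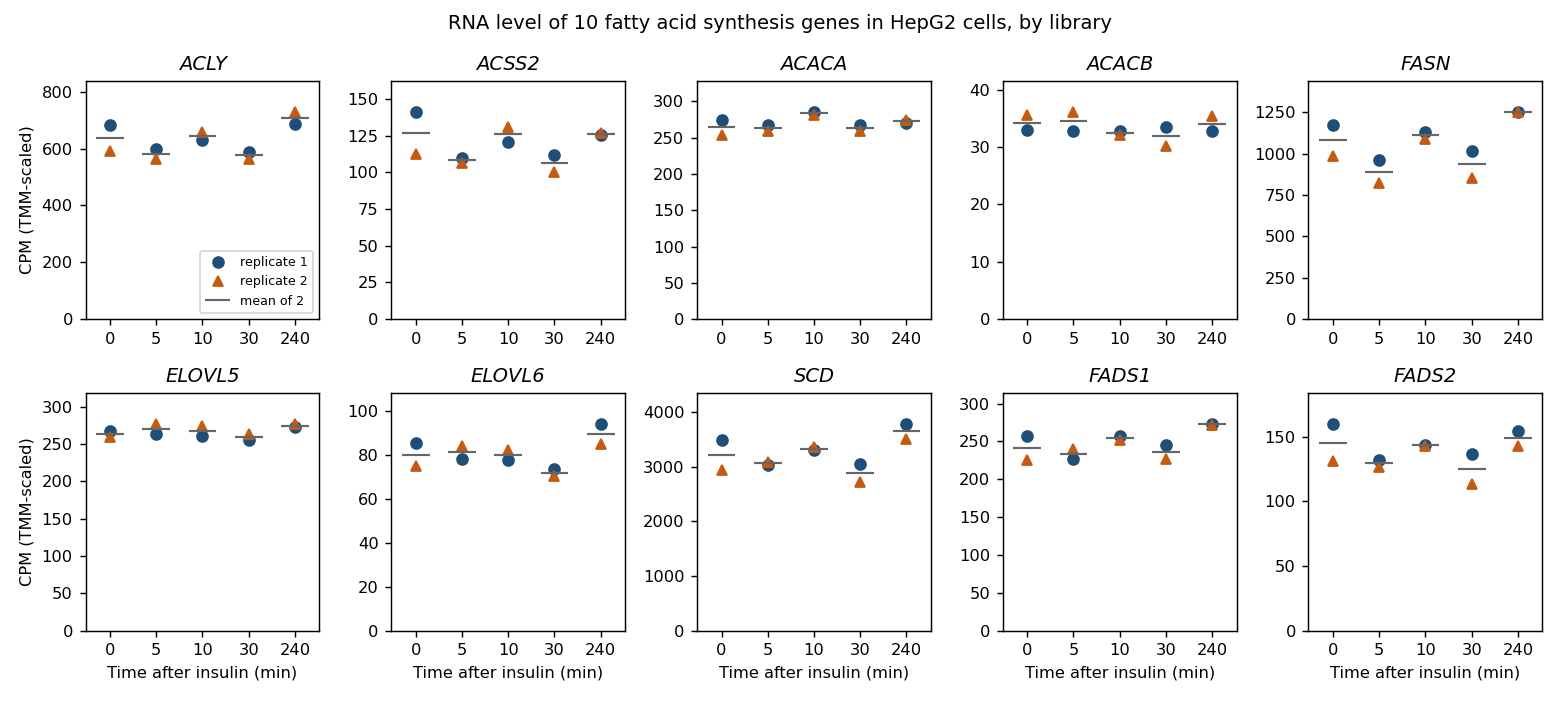
RNA level of each of the 10 genes against time after insulin (min, not to scale), in CPM scaled by TMM, with each axis starting at 0. Circles are replicate 1, triangles replicate 2 and lines the mean of both. FASN and SCD stood highest at 240 min, and the 0 min replicates lay apart from each other in most panels.

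CPM here are read counts scaled to library size by TMM, which allow 1 gene to be compared between libraries. FASN, the synthase itself, measured 1176 and 988 CPM (0 min), 961 and 824 (5 min), 1132 and 1091 (10 min), 1015 and 856 (30 min) and 1251 and 1251 (240 min) in its 2 replicates. Both 240 min libraries were thus above every other library, and both 5 min libraries were below both 0 min libraries. ACLY, which supplies acetyl-CoA from citrate, measured 684 and 593 CPM (0 min), 599 and 564 (5 min), 632 and 657 (10 min), 588 and 564 (30 min) and 687 and 728 (240 min). Its 240 min libraries were also the highest. SCD, the delta-9 desaturase, measured 3486 and 2939.9 CPM (0 min), 3037 and 3078 (5 min), 3295 and 3357 (10 min), 3044 and 2714 (30 min) and 3783 and 3510.0 (240 min). As with FASN, the 240 min libraries were the highest, and the lowest SCD value was that of 30 min replicate 2.

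The elongase ELOVL6, which makes stearate from palmitate, measured 85.3 and 74.8 CPM (0 min), 78.2 and 84.2 (5 min), 77.8 and 82.0 (10 min), 73.4 and 70.4 (30 min) and 94.2 and 85.1 (240 min). The 240 min libraries overlapped those at 0 min but lay above those at 30 min. FADS1 measured 257 and 225 CPM (0 min), 227 and 240.1 (5 min), 257 and 252 (10 min), 246 and 226 (30 min) and 273 and 272 (240 min). FADS2 measured 160.1 and 131 CPM (0 min), 132 and 127 (5 min), 144 and 143 (10 min), 137 and 114 (30 min) and 155 and 143 (240 min). FADS1 was thus highest in both 240 min libraries, while FADS2 was highest in 0 min replicate 1.

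ACSS2, the cytosolic acetyl-CoA synthetase, measured 141 and 113 CPM (0 min), 110.1 and 107 (5 min), 121 and 131 (10 min), 112 and 101 (30 min) and 126 and 127 (240 min). Its 240 min libraries lay between those of 0 min. The carboxylase ACACA ranged only from 253 CPM in 0 min replicate 2 to 285 in 10 min replicate 1, ACACB from 30.3 to 36.1, and the elongase ELOVL5 from 255 to 277. These 3 genes varied least over the course, with a root mean square deviation from their own mean of 0.052, 0.073 and 0.040 on the log2 scale, against 0.20 for FASN.

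The replicates at 0 min differed in these genes more than most genes did. Replicate 1 was higher than replicate 2 in 9 of the 10, by a mean of 0.17 on the log2 scale, and the largest difference was 0.32 in ACSS2. The median size of the difference was 0.20 for the 10 genes and 0.062 over all tested genes. At 30 min replicate 1 was higher in 9 of 10 as well, by a mean of 0.12, and at 5, 10 and 240 min the mean difference was 0.0059, -0.021 and 0.013. The 5 min comparison and the others with 0 min share these 2 control libraries, so their values are not independent. Counting each library by the genes above their own mean gave 9 and 1 of 10 (0 min), 0 and 3 (5 min), 7 and 9 (10 min), 1 and 0 (30 min) and 9 and 10 (240 min).

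**Figure D3:**
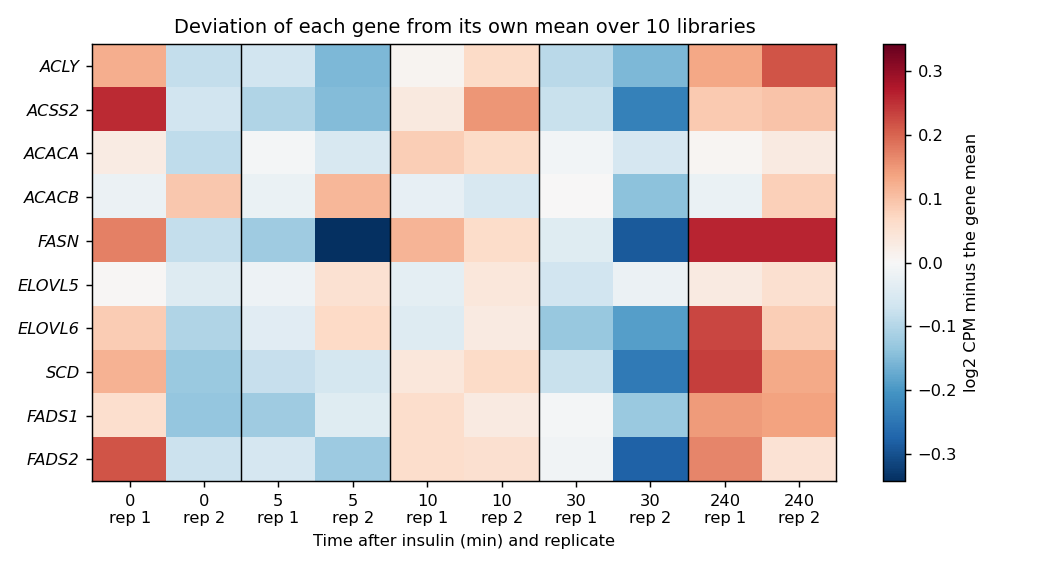
Heat map of the log2 CPM of each gene minus its own mean over the 10 libraries, with genes in rows and libraries in columns by time (min) and replicate. Red is above and blue below the mean. The 2 libraries at 240 min are above the mean in 9 and 10 of the 10 genes, those at 30 min in 1 and 0, and the 2 libraries at 0 min differ from each other (9 and 1).

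In the comparisons of 5, 10 and 30 min with 0 min no enzyme gene passed the threshold. The threshold was an adjusted p under 0.05 over all genes tested (quasi-likelihood test of edgeR, adjusted by Benjamini and Hochberg). At 5 min the called share of all genes was 0.0%, with 1976 genes at an unadjusted p under 0.05, and 7 of the 10 enzyme genes were lower than at 0 min (all 10 when libraries were scaled by the ERCC spike-in RNAs, 6 with DESeq2), 3 of them with an unadjusted p under 0.05. FASN gave -0.28 ± 0.082 on the log2 scale (SE, edgeR adjusted p = 0.243) and ACSS2 -0.22 ± 0.077 (SE, edgeR adjusted p = 0.262), and their replicates did not overlap those at 0 min, as was so, in the lower direction, of 23.9% of all genes. Without 0 min replicate 1 they were at -0.15 and -0.059, and 5 of the 10 genes were lower. At 10 min, where 0.137% of genes were called, 7 of 10 were higher, but 1 without 0 min replicate 2 and none under the ERCC scaling, where the median log2 fold change over all genes was -0.33. The ERCC RNAs took 1.73% of counts in 10 min replicate 1 and 2.36% in 10 min replicate 2, the highest share of any library. With TMM the log2 fold changes ran from -0.08 for ACACB to 0.10 for ACACA. The ACACA value had the smallest adjusted p of the 10, 0.951 (edgeR).

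At 30 min all 10 enzyme genes were lower than at 0 min, 7 of them without 0 min replicate 1, but none passed, where 0.332% of all genes were called. Their median log2 fold change was -0.15 and that of all genes -0.0050. ACSS2 gave -0.24 ± 0.077 (SE, edgeR adjusted p = 0.349), FASN -0.21 ± 0.082 (SE, edgeR adjusted p = 0.507) and FADS2 -0.21 ± 0.081 (SE, edgeR adjusted p = 0.502). Without 0 min replicate 1 these were -0.082 for ACSS2, -0.078 for FASN and -0.062 for FADS2, and without 30 min replicate 2 they were -0.17, -0.090 and -0.080. ACLY, ACSS2 and ELOVL6 were lower in both replicates than in both at 0 min, which 19.8% of all genes were. Without 0 min replicate 2 the ACSS2 value became -0.41 (edgeR adjusted p = 0.0155), and without a filter on low counts 2 of the enzyme genes passed at 5 min and 3 at 30 min.

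At 240 min 4 of the 10 enzyme genes had risen over 0 min and none had fallen: FASN, SCD, ELOVL6 and FADS1. Of all genes 41.0% were called in this comparison, 20.6% higher and 20.4% lower. No time after 0 min had a library of cells left without insulin. Insulin, the change of medium and time in culture therefore cannot be told apart. FASN rose from 1082 ± 133 CPM (SD, n = 2) to 1251 ± 0.657 (SD, n = 2), by 15.7%, with 0.21 ± 0.082 on the log2 scale (SE, edgeR adjusted p = 0.0476). SCD rose by 13.5%, from 3213 ± 386 CPM (SD, n = 2) to 3647 ± 193 (SD, n = 2), with 0.18 ± 0.071 on the log2 scale (SE, edgeR adjusted p = 0.0461). FADS1 rose by 13.2%, with 0.18 ± 0.059 on the log2 scale (SE, edgeR adjusted p = 0.0198), and ELOVL6 by 12.8%, with 0.17 ± 0.065 (SE, edgeR adjusted p = 0.0387).

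ACLY just missed the threshold at 240 min, with 0.15 ± 0.061 on the log2 scale (SE, edgeR adjusted p = 0.0573). The other 5 genes gave 0.06 for ELOVL5, 0.05 for ACACA, 0.04 for FADS2, -0.00058 for ACSS2 and -0.017 for ACACB, with standard errors of 0.048 to 0.080. With ERCC scaling ELOVL5, ACACA and FADS2 turned to -0.056, -0.073 and -0.083. FASN, ACLY, SCD, ELOVL5 and FADS1 were higher in both 240 min libraries than in both at 0 min, 5 of 10 genes, against 34.8% of all genes. The median over the 10 was 0.11, and over all genes -0.0026. The number of enzyme genes called rested on single libraries. It was 5 without 0 min replicate 1, 0 without 0 min replicate 2, 0 without 240 min replicate 1 and 2 without 240 min replicate 2. FASN was at 0.34 without 0 min replicate 1 and at 0.087 without 0 min replicate 2. With DESeq2 and with limma on TPM only FADS1 passed, and with ERCC scaling no gene of the 10 did.

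Setting 240 min against 30 min compared 2 times that were both titled later than 0 min. All 10 enzyme genes were higher at 240 min and 7 had risen: FASN, SCD, ELOVL6, ACLY, FADS2, ACSS2 and FADS1. Of all genes 38.2% were called, 19.8% higher and 18.4% lower. The median log2 fold change of the 10 was 0.24, against -0.00015 over all genes, and 9 of the 10, all but ACACB, were higher in both libraries than in both at 30 min, as were 33.7% of all genes. This comparison was made between 2 times of the same course and shares its 240 min libraries with the comparison above.

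FASN rose most, by 33.7%, from 936 ± 112 CPM (SD, n = 2) to 1251 ± 0.657 (SD, n = 2), 0.42 ± 0.083 on the log2 scale (SE, edgeR adjusted p = 0.000473). SCD rose by 26.7%, from 2879 ± 233 to 3647 ± 193 CPM (SD, n = 2), 0.34 ± 0.071 on the log2 scale (SE, edgeR adjusted p = 0.000793). ELOVL6 rose by 24.8%, from 71.9 ± 2.14 to 89.6 ± 6.38 CPM (SD, n = 2), 0.32 ± 0.067 on the log2 scale (SE, edgeR adjusted p = 0.00078). ACLY rose by 22.8%, from 576 ± 17.1 to 708 ± 29.0 CPM (SD, n = 2), 0.30 ± 0.061 on the log2 scale (SE, edgeR adjusted p = 0.000739). These were the synthase, the delta-9 desaturase, the elongase of palmitate and the citrate lyase. Without 30 min replicate 1 FADS2, at 0.39, stood above ELOVL6 (0.35) and ACLY (0.33).

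FADS2 rose by 18.5% (0.25 ± 0.082 on the log2 scale, SE, edgeR adjusted p = 0.0224), ACSS2 by 18.3% (0.24 ± 0.078, SE, edgeR adjusted p = 0.0187) and FADS1 by 15.3% (0.21 ± 0.059, SE, edgeR adjusted p = 0.00917). Both carboxylases and ELOVL5 did not pass: ACACB gave 0.09, ELOVL5 0.09 and ACACA 0.05, with standard errors of 0.074, 0.048 and 0.049. FASN, ACLY, SCD and ELOVL6 passed with each library of the 2 times left out in turn, FASN at 0.30 to 0.55. FADS1, FADS2 and ACSS2 no longer passed without 30 min replicate 2, at 0.15, 0.12 and 0.17, which left 4 genes called, and ACSS2 and FADS2 did not without 240 min replicate 1, nor ACSS2 without 240 min replicate 2. FADS2 did not pass with DESeq2 (adjusted p = 0.141), and with limma on TPM neither FADS2 (adjusted p = 0.0567) nor ACSS2 (adjusted p = 0.0637) did. With ERCC scaling none of the 7 passed, although FASN stayed at 0.41 to 0.44 over the 7 alternative settings.

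**Figure D4:**
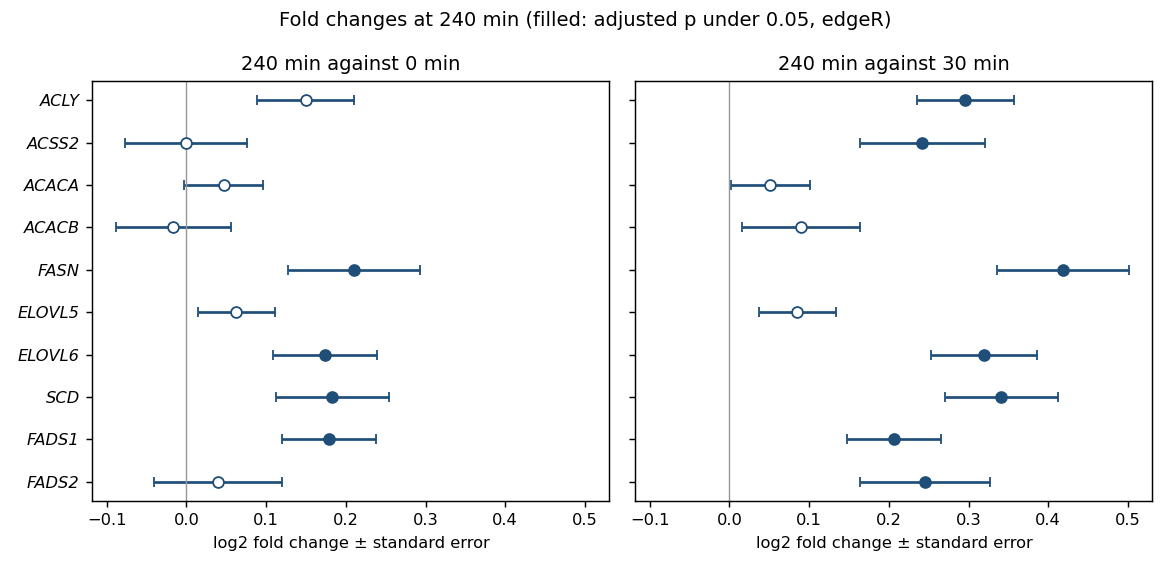
Log2 fold change of each of the 10 genes at 240 min against 0 min (left) and against 30 min (right), with the standard error as bars, from edgeR over 2 libraries per time. Filled points have an adjusted p under 0.05, which 4 genes have on the left and 7 on the right, with FASN highest in both at 0.21 and 0.42.

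**Figure D5:**
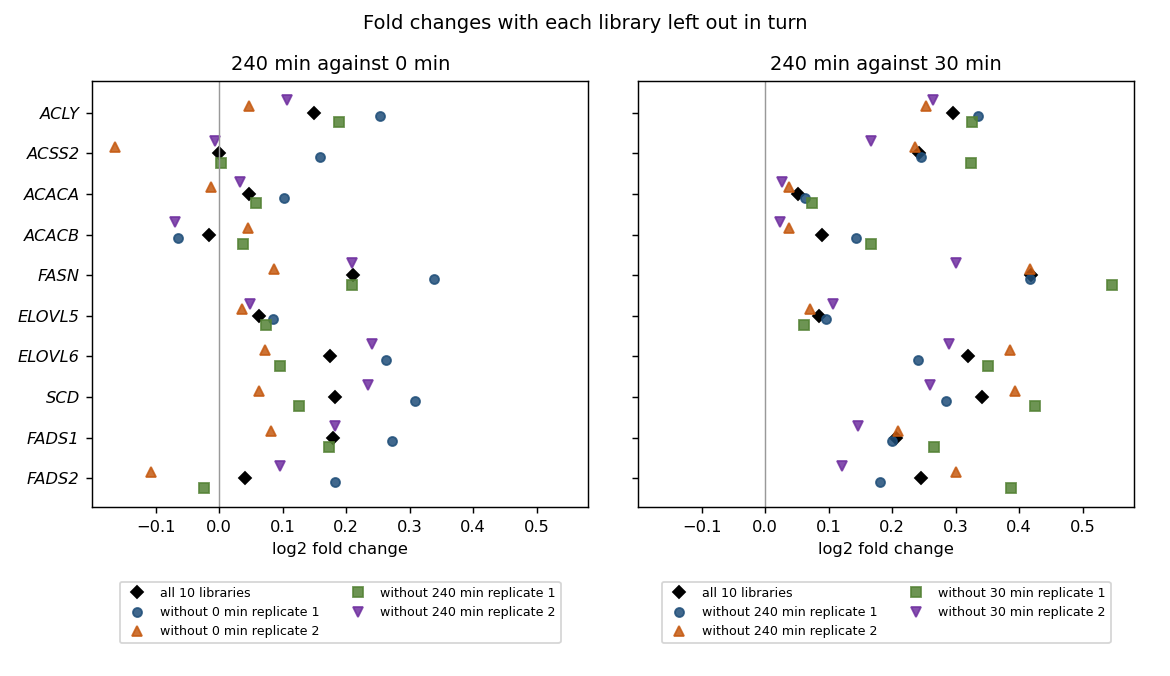
The same log2 fold changes with all 10 libraries (diamonds) and with each library of the 2 times left out in turn (coloured symbols named under each panel). On the left FASN runs from 0.087 to 0.34 with the 0 min library left out, and on the right every point is above 0.

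FASN and its neighbours in the pathway can also be read against ACACA, a gene whose level changed little, although this reference was chosen after the values were seen. For each ACACA read the FASN reads numbered 4.28 and 3.90 (0 min), 3.59 and 3.18 (5 min), 3.97 and 3.88 (10 min), 3.80 and 3.31 (30 min) and 4.63 and 4.56 (240 min). For SCD the ratio was 12.7 and 11.6 (0 min), 11.4 and 10.5 (30 min) and 14.01 and 12.8 (240 min). These ratios do not depend on how libraries are scaled, and in both genes, as in ACLY and FADS1, the 240 min libraries were the highest of the 10. This was not so of the other genes that passed against 30 min. FADS2 and ACSS2 were highest in 0 min replicate 1, at 0.583 and 0.514 reads per ACACA read, and ELOVL6 in 240 min replicate 2, at 0.310, was below 5 min replicate 2 (0.325) and 0 min replicate 1 (0.311).

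The 3 genes with an IR peak are given side by side for 240 min against 30 min. FASN gave a log2 fold change of 0.42 and ACLY 0.30, whereas ACACA gave 0.05 and did not pass. SCD and ELOVL6 rose by 0.34 and 0.32 without a peak within 5 kb. FADS1 had none within 5 kb but 1 within 20 kb, a distance at which 21.3% of all tested genes had a peak. With 1 IR library no difference in binding between times could be tested.

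Other genes of the pathway were counted from lists, to be read against the shares of all genes called, 20.6% higher and 20.4% lower over 0 min and 19.8% and 18.4% against 30 min. Of the 15 other elongation and desaturation genes 12 were tested, and 2 rose at 240 min over 0 min and none fell, so that the share called higher was near that of all genes. They were CYB5A, the cytochrome b5 that passes electrons to desaturases, at a log2 change of 0.15 (edgeR adjusted p = 0.0341), and HACD1, a dehydratase of the elongation cycle, with 0.35 (edgeR adjusted p = 0.0297), and neither passed with DESeq2. Against 30 min only HSD17B12, the ketoacyl reductase of elongation, passed, with 0.20 (edgeR adjusted p = 0.0194). ELOVL4 had 3 to 8 reads per library, SCD5 0 to 3 and HACD4 0, and none of these was tested. Of 7 genes that supply citrate, acetyl-CoA and NADPH, 6 were tested, and 4 rose and none fell over 0 min. ACSS1, the mitochondrial acetate enzyme, rose most, with 0.40 (edgeR adjusted p = 4.49e-05), then IDH1, a source of cytosolic NADPH, with 0.22, PGD with 0.16 and CS, the citrate synthase, with 0.14. Against 30 min ACSS1, IDH1 and PGD passed, all higher. The malic enzyme ME1 had 0 to 3 reads per library.

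Of 8 regulators of the enzymes 7 were tested, and over 0 min 2 rose and 1 fell. MID1IP1, a protein that promotes ACACA polymers, rose by 0.28 (edgeR adjusted p = 0.0195) and TRIB3, a pseudokinase that binds AKT, by 0.64 (edgeR adjusted p = 4.94e-06). PRKAA2, a catalytic subunit of AMPK, the kinase that inhibits ACACA and ACACB, fell by 0.45 (edgeR adjusted p = 3.81e-06). Against 30 min 3 rose, with MLYCD, the malonyl-CoA decarboxylase, at 0.31, and 2 fell, with PRKAG1 at -0.20. Of 10 transcriptional regulators 9 were tested, and over 0 min 1 rose and 5 fell. SREBF1 rose from 47.9 to 61.3 CPM, at a log2 change of 0.37 (edgeR adjusted p = 0.00146). INSIG2, which holds SREBP precursors in the endoplasmic reticulum, fell from 195 to 78.0 CPM, by 1.32 on the log2 scale (edgeR adjusted p = 2.45e-13). NR1H2 gave -0.65, SCAP, the escort of SREBP, -0.35, MLXIPL, the carbohydrate response factor, -0.21 and SREBF2 -0.17, all past the threshold. Against 30 min SREBF1 rose and 4 of these fell, all but SREBF2. INSIG1 had 1 to 5 reads per library and was not tested. All 5 acyl-CoA synthetases that activate fatty acids were tested, and over 0 min ACSL1 (0.25) and ACSL6 (0.20, not passing with DESeq2) rose, while ACSL4 (-0.22) and ACSL5 (-0.48) fell. Against 30 min ACSL3 rose as well, by 0.22, which made 3 higher and 2 lower. The 42 values past the threshold for these lists and the markers kept their direction under every alternative, but not all kept the call. With ERCC scaling 7 of the 42 still passed, INSIG2 and ACSL5 over 0 min among them, and 35 passed with DESeq2, 35 with limma on TPM and 30 without 240 min replicate 1. Over 0 min, HACD1 and ACSL6 passed in 5 of 11 alternative fits and CYB5A in 6.

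The genes with profiles most like that of FASN over the 10 libraries were DHCR7, UBL4A, SREBF1, NUDT8 and ATAD3A. Likeness was the root mean square difference between log2 CPM profiles centred on their means, over 5731 genes that varied enough, and it was 0.050 for DHCR7, 0.057 for UBL4A, 0.062 for SREBF1 and NUDT8 and 0.069 for ATAD3A, against 0.20 for FASN itself around its mean. Among the other enzyme genes ACLY came nearest to FASN at 0.096, at rank 47, followed by FADS2 at rank 82, SCD at 91 and ACSS2 at 113. ELOVL6 was far from FASN, at rank 896, and ACACA, ACACB, ELOVL5 and FADS1 varied too little to be ranked. The genes nearest to the mean profile of the 10 were WIBG at 0.027, PSAT1 at 0.033, UQCC2 at 0.035, H2AFY at 0.037 and FAM83D at 0.038, over 9771 genes. FADS1 was the enzyme gene nearest to that mean, at rank 8, then ACLY at 14 and SCD at 22. FASN was far from it at rank 3019, as was ACACB at 2278, and ELOVL5 varied too little to be ranked. The mean was made from the 10 genes themselves, so their nearness to it is partly built in. The points share libraries and depth, and the ranks are a description.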

How the data were processed

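RNA-seq of HepG2 cells at 5 times, 2 libraries each, and 1 IR ChIP-seq library were analysed. The members and lists were chosen with earlier results of these data known. Per the study's methods and the submitters' processing notes, reads were trimmed with Trim Galore 0.6.4, aligned to hg19 with STAR 2.6.1d and counted by strand with featureCounts 1.6.4, and the authors deposited the counts without normalization. The authors also deposited StringTie tables with TPM, FPKM and coverage, of which TPM was used for levels between genes and FPKM and coverage were not used. For the ChIP-seq, reads were aligned with BWA 0.7.17-r1188 and peaks called with MACS2 2.2.7.1, and the authors deposited a peak list annotated by HOMER with a score for each peak.

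The counts were fitted here with edgeR 4.0.16 in R 4.3.3, using TMM, filterByExpr and its quasi-likelihood test, with all 10 libraries in 1 fit and no block, and p-values were adjusted over 13852 genes (Benjamini-Hochberg, threshold 0.05). The 92 ERCC spike-in rows, with 1.59% to 2.36% of counts, stayed out. No 2 replicates agreed within sampling noise (chi-square over degrees of freedom 2.75 to 6.13). A standard error is the fold change divided by the root of its F statistic. Scripts were tested on simulated data. Alternatives were DESeq2 1.42.0, no filter, RLE, ERCC scaling, only the 2 times compared, a replicate block, limma 3.58.1 on log2(TPM + 1), and each library left out in turn, and running them on the pathway and marker genes was chosen after seeing the data. All 10 members and, of the pathway lists, genes that passed at 240 min were named, with genes near 0 reads and the ACACA ratios chosen after values were seen. A gene of the pathway lists, left out of their counts, and the sequence under a peak are not reported here. Gene bodies were those of the StringTie tables, and start sites and exons those of GENCODE v44 lifted to GRCh37, with RefSeq promoter windows of GRCh38.p14. Peaks were handled with Python 3.11.15 and pandas 2.3.3, and figures drawn with matplotlib 3.10.9.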

Additional observations from a re-analysis of the deposited data

How the results depend on the processing

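The number of enzyme genes called at 240 min against 0 min, 4 with all libraries, was 1 with DESeq2, 1 with limma on TPM and 0 with ERCC scaling, and 0 to 5 with 1 library left out. Against 30 min the 7 calls became 6 with DESeq2, 5 with limma, 0 with ERCC scaling and 4 to 7 with 1 library left out. Without a filter on low counts 2 enzyme genes passed at 5 min and 3 at 30 min, and with 1 library left out 0 passed at 5 and 10 min and 0 to 1 at 30 min. With the replicate block 0, 0, 0, 4 and 7 were called over the 5 comparisons, as without it. Deviations of same-numbered libraries correlated at -0.35 to 0.32 over 10 pairs of times, 3 of them below 0. Such values do not settle whether same-numbered libraries shared a culture or batch, which the labels do not give. Over all genes the 0 calls at 5 min became 144 without a filter, 2 with ERCC scaling, 1 with only the 2 times, with the replicate block and with limma, and 0 to 22 with 1 library left out. The 19 at 10 min became 74 without a filter, 40 with only the 2 times and 1 with limma, and 9 to 20 with 1 library left out. The 46 at 30 min became 160 without a filter, 4 with ERCC scaling, 9 with limma and 18 to 46. ERCC scaling moved the median of all genes by -0.083, -0.33, -0.13 and -0.12 at 5, 10, 30 and 240 min, and called 1059 genes at 240 min, 331 of them higher, against 2847 of 5676. Against 30 min it called 917, 573 of them higher, against 2743 of 5297. Limma on TPM called 4584 at 240 min, 2783 of them higher. With 1 library left out 3893 to 4884 genes were called at 240 min against 0 min and 3947 to 4593 against 30 min. Directions turned only in log2 fold changes that had not passed. At 240 min against 0 min ACSS2 was 0.0018 without a filter, 0.0019 with only the 2 times, 0.00013 with the replicate block, 0.013 with limma and -0.16 to 0.16 with 1 library left out. ACACA was -0.073, ELOVL5 -0.056 and FADS2 -0.083 with ERCC scaling, and ACACB 0.027 with limma. With 1 library left out ACACA ran from -0.013 to 0.10, ACACB from -0.069 to 0.046 and FADS2 from -0.11 to 0.18. At 10 min ACACA was -0.22 with ERCC scaling. IR peaks counted by the nearest gene in the HOMER columns gave 1 enzyme gene, and 3 within 1 kb, 4 within 20 kb and 2 with a score above the median. The cause of these changes was not tested.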
